A study of Mus musculus with 19 samples.

Results

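The mitochondrial genome of the mouse carries 37 genes, and all 37 were found by their mt- symbols among the 51912 genes counted in E13.5 mouse cerebral cortex. They comprised 13 mRNA genes, 2 rRNA genes and 22 tRNA genes. Counts came from 19 embryos, with 1 rRNA-depleted Click-seq library per embryo, in which unique molecular identifiers had been used to remove duplicates. Of these, 7 embryos (called ctrl) carried only the label control, on a mixed C57BL/6 and 129 background that all groups shared. Another 5 were cKO-E embryos, in which Emx1-Cre removed floxed *Ino80*, the ATPase of a chromatin remodelling complex. The last 7 were dKO-E embryos, in which Emx1-Cre removed both *Ino80* and *Trp53*, the gene of the p53 tumour suppressor. Emx1-Cre recombines in cortical progenitors and their descendants, so vessels, microglia and immigrant interneurons in the dissected cortex kept both genes. Sequencing had been done in 3 batches. Batch 1 held ctrl A, B, C and D, cKO-E A, B and C and dKO-E A, B, C and D, batch 2 held ctrl F, H and I, cKO-E D and E and dKO-E F and G, and batch 3 held dKO-E E alone. Male embryos were ctrl B, D and I, cKO-E C and dKO-E C, D, E, F and G, and the rest were female.

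Mitochondrial DNA is transcribed from both strands as long precursors that run around the circle. The tRNAs lie between most of the rRNA and mRNA genes and are cut out, which releases the neighbouring transcripts. The rRNAs, *mt-Rnr1* of the small and *mt-Rnr2* of the large mitochondrial ribosomal subunit, lie nearest the heavy-strand promoter, and the mRNAs encode core subunits of respiratory complexes I, III and IV and of ATP synthase. Dividing cortical progenitors rely largely on glycolysis, and neuronal differentiation brings a shift towards oxidative phosphorylation.

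Libraries held between 820915 and 8095810 gene counts (median 2952788). Rows that named no gene took 23.3% to 31.8% of each library and were left out. Of the 7 progenitor markers examined, 6 had counts, as had all 4 markers of cortical neurons, while *Sox2* was listed at 0 in all 19 libraries. *Ino80* was counted over the whole gene, which cannot show the removal of a few exons. Its level in CPM (read counts scaled to a common library size) was 121 ± 7.23 in ctrl (SD, n = 7), 166 ± 17.7 in cKO-E (SD, n = 5) and 186 ± 14.9 in dKO-E (SD, n = 7), a rise in cKO-E (log2 fold change 0.48, SE 0.065, edgeR adjusted p = 7.92e-05) and in dKO-E (0.62, SE 0.059, edgeR adjusted p = 8.84e-07). *Trp53* stood at 43.8 ± 5.60, 39.2 ± 4.79 and 34.5 ± 4.78 CPM in the same order, and its log2 fold change of -0.36 in dKO-E did not pass (SE 0.10, edgeR adjusted p = 0.0196).

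Of the 682288 counts on mitochondrial genes, 65.9% lay on the rRNAs, 33.9% on mRNAs and 0.144% on tRNAs. Of the 37 genes, 15 had no count in any library. Among these, 6 encode proteins, namely *mt-Co2* and *mt-Co3* of complex IV, *mt-Atp6* and *mt-Atp8* of ATP synthase, and *mt-Nd3* and *mt-Nd4l* of complex I. The remaining 9 were the tRNA genes *mt-Tf*, *mt-Tv*, *mt-Ty*, *mt-Ts1*, *mt-Td*, *mt-Tk*, *mt-Tg*, *mt-Th* and *mt-Ts2*. A count of 0 allowed a level of up to 0.371 to 3.65 CPM, depending on the library, from counting error alone. On either side of them, *mt-Co1* had 100393 counts and *mt-Nd4* had 9350.

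**Figure D1:**
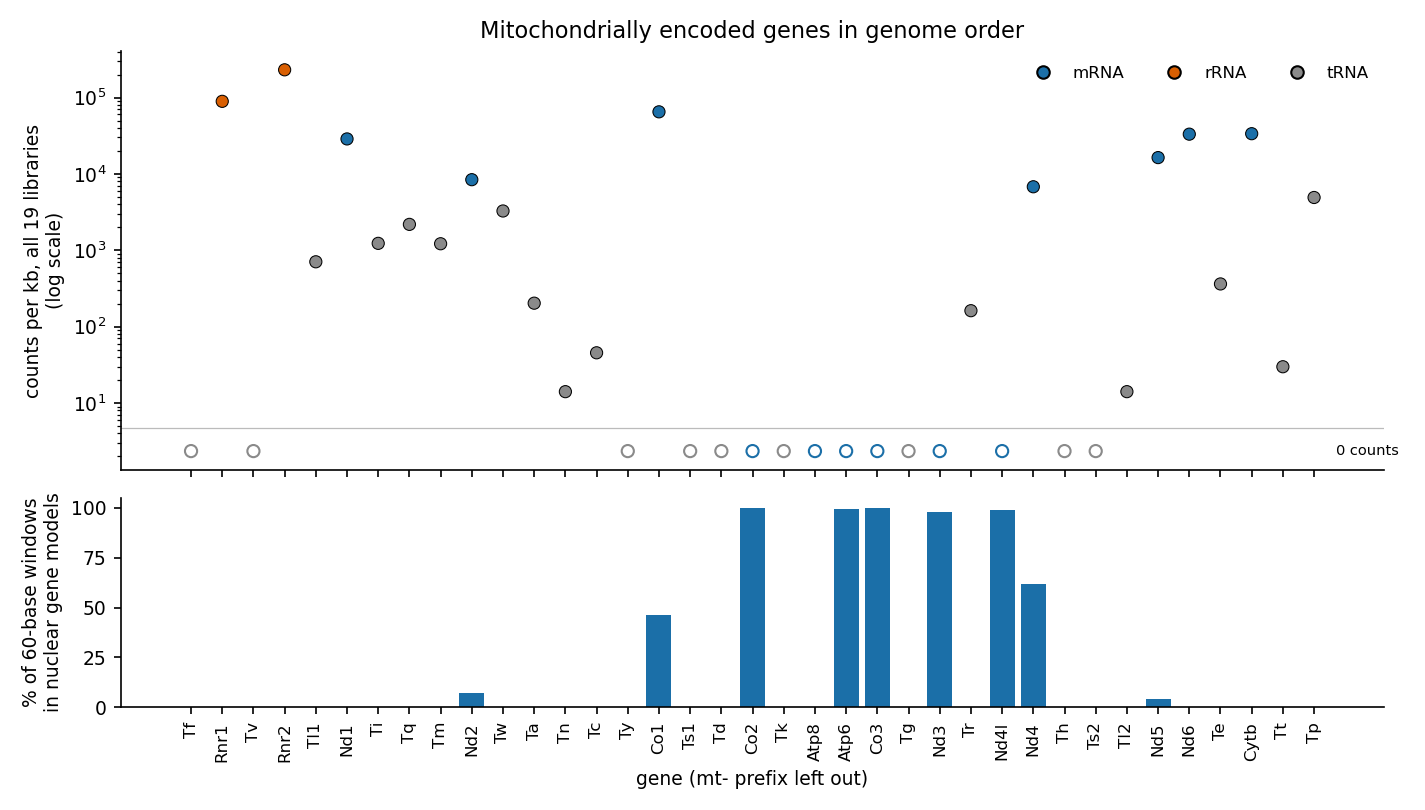
The upper panel plots the counts per kilobase of the 37 mitochondrial genes summed over the 19 libraries (log axis, genes with no count as open circles below the line), in the order in which they lie on the mitochondrial chromosome, and the lower panel plots the percentage of each gene's 60-base windows that also lie in a nuclear gene model. All 6 mRNA genes from *mt-Co2* to *mt-Nd4l* have no count, and all of them except *mt-Atp8* have over 97% of their windows in a nuclear model.

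Of the 6 zero-count mRNA genes, 5 had copies in the nuclear annotation, and *mt-Atp8* did not. On the minus strand of chromosome 1, 7 pseudogene models in a row (chr1:24611535-24616197, GRCm38) matched *mt-Co1*, *mt-Co2*, *mt-Atp6*, *mt-Co3*, *mt-Nd3*, *mt-Nd4l* and *mt-Nd4* in mitochondrial order, and over 4149 aligned bases only 7 differed. *mt-Co3* and its copy *Gm28437* were identical over all 783 bases. *mt-Nd3* and its copy *Gm28438* differed at 1 of 345 bases (T3C, with the mitochondrial base first and positions counted from the 5′ end of the gene). *mt-Co1* matched its copy *Gm29216* from base 1054 to its end, apart from the differences T1056A, C1057T, A1059G, A1060G, C1062A and A1066T. The starts of the matches are shown because they set out where a read could and could not tell the chromosomes apart, with the differing bases in capitals and all other bases in lower case. The *mt-Co3* and *mt-Nd3* stretches lay at chrM:8607-8696 and chrM:9459-9518 (plus strand), their copies at chr1:24613882-24613971 and chr1:24613060-24613119 (minus strand), the *mt-Co1* stretch at chrM:6381-6440 (plus strand) and its copy at chr1:24616138-24616197 (minus strand).
mt-Co3: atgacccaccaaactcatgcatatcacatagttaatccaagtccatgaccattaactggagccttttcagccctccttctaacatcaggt
Gm28437: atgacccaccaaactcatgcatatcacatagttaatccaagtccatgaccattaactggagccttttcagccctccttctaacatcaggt
mt-Nd3: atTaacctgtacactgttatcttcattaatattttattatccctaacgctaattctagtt
Gm28438: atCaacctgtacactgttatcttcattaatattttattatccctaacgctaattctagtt
mt-Co1: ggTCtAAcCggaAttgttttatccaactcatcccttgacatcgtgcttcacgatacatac
Gm29216: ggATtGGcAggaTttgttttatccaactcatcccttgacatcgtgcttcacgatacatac

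Reads that align equally well to several places were set aside as non-unique, and such reads made up 14.9% to 20.9% of the rows of each library (median 17.6%). The 7 nuclear copies together had 11 counts in all 19 libraries, with at most 2 on any copy in a library. Measured as the share of a gene's 60-base windows found in any nuclear gene model, the overlap was 100% for *mt-Co2*, 99.9% for *mt-Co3*, 99.5% for *mt-Atp6*, 98.7% for *mt-Nd4l* and 97.9% for *mt-Nd3*. It was 61.9% for *mt-Nd4*, 46.5% for *mt-Co1*, 7.15% for *mt-Nd2*, 4.42% for *mt-Nd5* and 0.394% for *mt-Rnr2*, and it was 0% for *mt-Rnr1*, *mt-Nd1*, *mt-Nd6* and *mt-Cytb*. Each of the 5 mRNA genes above 97% was thus at 0 and every counted one was below 62%, with *mt-Atp8* as the exception, at 0 with no window in a gene model. *mt-Atp8* lies between *mt-Co2* and *mt-Atp6*, the gap between the matches of those 2 genes was 233 bases long on the mitochondrial chromosome and on chromosome 1 alike, and the chromosome 1 bases of that gap were not analysed here. Whether the removal of non-unique reads accounted for the zeros was not tested. The zero-count genes could not be compared between groups. A level of *mt-Co1* or *mt-Nd4* may reflect only the part of the gene without a copy, which was not tested either.

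*mt-Nd1*, a membrane-arm subunit of complex I, had no nuclear match. Its first 90 bases (chrM:2751-2840, plus strand) and the whole of *mt-Tp*, the tRNA for proline (chrM:15356-15422, minus strand), are given because both genes were counted and recur in the comparisons. Counts were made per gene and do not show which bases the reads covered.
mt-Nd1: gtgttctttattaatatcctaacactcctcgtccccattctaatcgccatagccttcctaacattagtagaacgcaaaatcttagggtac
mt-Tp: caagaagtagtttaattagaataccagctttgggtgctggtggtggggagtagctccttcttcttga

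Within ctrl cortex the levels of the 9 counted rRNA and mRNA genes spread widely when expressed as CPM per kilobase of windows free of a nuclear match. *mt-Rnr2* was highest at 5033 ± 414, even after rRNA depletion, followed by *mt-Co1*, the catalytic subunit of complex IV, at 2238 ± 127 and *mt-Rnr1* at 1815 ± 366 (SD, n = 7 for each). *mt-Nd6*, the only mRNA read from the other strand, stood at 563 ± 66.8, *mt-Cytb* of complex III at 494 ± 90.1 and *mt-Nd1* at 419 ± 54.5. *mt-Nd4* and *mt-Nd5*, membrane-arm subunits of complex I, stood at 272 ± 52.5 and 269 ± 37.1, and *mt-Nd2*, another one, at 118 ± 37.8. Neighbours in this order that differed by less than the larger SD were *mt-Nd6* and *mt-Cytb*, *mt-Cytb* and *mt-Nd1*, and *mt-Nd4* and *mt-Nd5*. The order depends on the windows used. Per kilobase of whole gene, summed over all 19 libraries, *mt-Co1* had 64979 counts, below *mt-Rnr1* at 89146. Likewise, *mt-Nd4* at 6785 was then below *mt-Nd2* at 8400. *mt-Nd5* and *mt-Nd6* overlap by 14 bases on opposite strands, and the strand setting of the counting was not given in the sources used here, so that transcripts of the opposite strand may be held in the *mt-Nd6* value.

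The share of all gene counts that fell on mitochondrial genes was 1.29 ± 0.121% in ctrl (SD, n = 7), 1.20 ± 0.0785% in cKO-E (SD, n = 5) and 0.913 ± 0.308% in dKO-E (SD, n = 7). The rRNA share was 0.926 ± 0.0911% in ctrl, 0.816 ± 0.0597% in cKO-E and 0.506 ± 0.244% in dKO-E, and the mRNA share was 0.365 ± 0.0356%, 0.382 ± 0.0219% and 0.405 ± 0.0724%. These are sums over the members and are given without a test. The mean mRNA shares of ctrl and cKO-E lay within 1 SD of each other. Within batch 1 the mRNA share of cKO-E differed from that of ctrl by -0.014 on the log2 scale and that of dKO-E by -0.00038 (0.21 without dKO-E A), and within batch 2 by 0.18 and 0.33. For the rRNA share the log2 differences of cKO-E and dKO-E were -0.24 and -1.24 in batch 1 (-0.50 in dKO-E without A) and -0.09 and -0.54 in batch 2. In bulk tissue, fewer cells of a type and less RNA per cell cannot be told apart.

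For the rRNA share, ctrl libraries ran from 0.791% to 1.06% (median 0.897%), the cKO-E libraries A to E were at 0.809%, 0.836%, 0.735%, 0.801% and 0.900%, and dKO-E libraries ran from 0.0845% to 0.682% (median 0.633%). All 7 dKO-E libraries were below all ctrl and cKO-E libraries, whereas cKO-E overlapped ctrl. Far below the rest stood dKO-E A at 0.0845% and dKO-E E, the only library of batch 3, at 0.227%, while the other 5 dKO-E libraries lay between 0.607% and 0.682%. For the mRNA share, ctrl ran from 0.318% to 0.424% (median 0.359%), and 6 dKO-E libraries lay between 0.410% and 0.459%, with dKO-E A at 0.246%. Hence dKO-E E was low in the rRNAs alone, and dKO-E A was low in both classes.

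**Figure D2:**
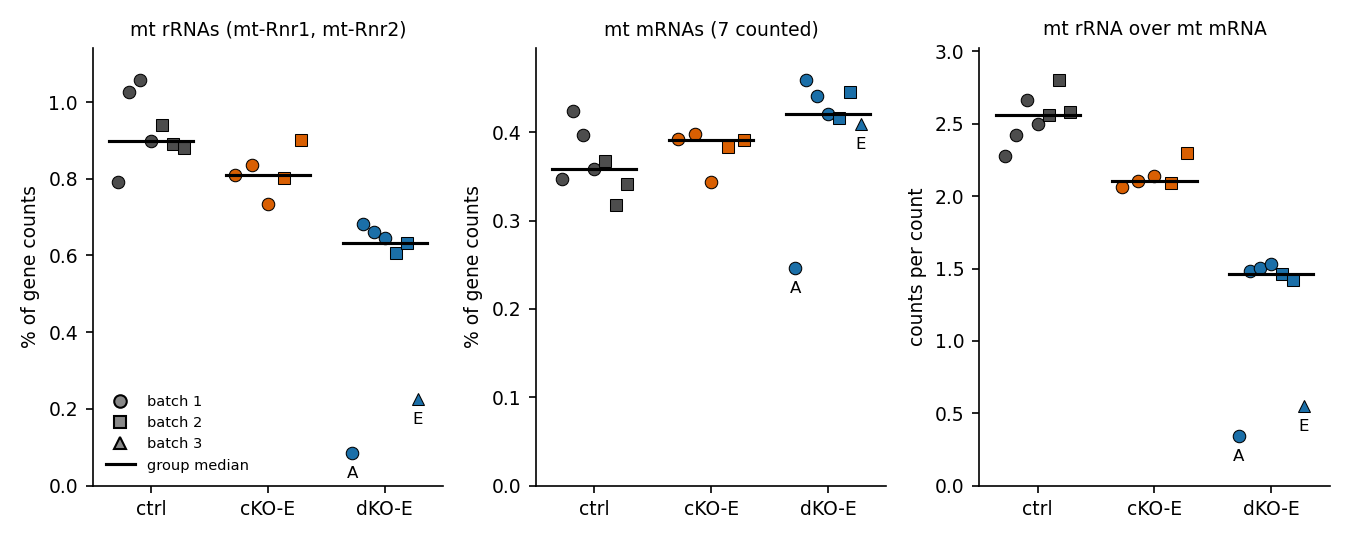
Percentage of all gene counts on mitochondrial rRNA genes, the same on mitochondrial mRNA genes, and the ratio of rRNA to mRNA counts in each library, by genotype (ctrl, n = 7, cKO-E, n = 5, dKO-E, n = 7), with a point per library shaped by sequencing batch and a line for the group median. All dKO-E libraries are below all ctrl libraries for the rRNAs and for the ratio, and dKO-E A is the lowest library in every panel.

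Setting 1 class against the other within a library removes the choice of scaling. It does not remove any difference between libraries in rRNA depletion, whose part in the mitochondrial rRNA counts was not tested. The ratio of rRNA to mRNA counts was 2.28 to 2.80 in ctrl (median 2.56). It was 2.06, 2.10, 2.14, 2.09 and 2.30 in cKO-E A to E, so that 4 of 5 libraries were below every ctrl library. In dKO-E it ran from 1.42 to 1.53 in the 5 libraries other than A, at 0.343, and E, at 0.553, and all 7 libraries were below every ctrl and cKO-E library. The order ctrl, cKO-E, dKO-E also held within batch 1, with means of 2.46, 2.10 and 1.22, and within batch 2, with means of 2.65, 2.20 and 1.44. The ratio of *mt-Rnr2* to *mt-Rnr1* counts was 3.96 to 5.43 in ctrl, 3.80 to 4.98 in cKO-E and 3.61 to 4.92 in the same 5 dKO-E libraries, against 2.86 in dKO-E A and 7.45 in dKO-E E.

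The direct comparison of dKO-E with ctrl asked which single genes differed when *Ino80* and *Trp53* were both lost. Expression levels are given as CPM scaled by TMM factors (which align the bulk of genes between libraries). *mt-Rnr2* ran from 6831 to 8977 CPM in ctrl (median 7853) and from 601 to 5309 CPM in dKO-E (median 4898), so that the groups did not overlap. The log2 fold change was -0.99 (SE 0.298, edgeR quasi-likelihood test, Benjamini-Hochberg adjusted p = 0.0297), which missed the 0.001 threshold that the study used. Overlap was not counted over all genes, here or in the other comparisons, so that a gap between groups has no background share beside it. *mt-Rnr1* ran from 1367 to 2245 CPM in ctrl (median 1451) and from 210 to 1470 CPM in dKO-E (median 1014), with 5 of 7 dKO-E libraries below every ctrl library (log2 fold change -0.87, SE 0.313, edgeR adjusted p = 0.0681).

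Among the mRNAs, *mt-Co1* ran from 1606 to 2040 CPM in ctrl (median 1807) and from 1171 to 1731 CPM in dKO-E (median 1662), with 3 dKO-E libraries below every ctrl library (log2 fold change -0.21, SE 0.072, edgeR adjusted p = 0.0512). *mt-Nd1* pointed the other way, from 333 to 497 CPM in ctrl (median 362) and from 512 to 641 CPM in 6 dKO-E libraries, all above every ctrl library, while dKO-E A was below all of them at 176 CPM (log2 fold change 0.40, SE 0.181, edgeR adjusted p = 0.145). For *mt-Nd2* the ctrl range was 69.7 to 182 CPM and the dKO-E range 54.6 to 222 CPM. *mt-Cytb* ran from 418 to 768 CPM in ctrl and from 329 to 884 CPM in dKO-E. The ranges also overlapped for *mt-Nd4* (107 to 201 CPM in ctrl, 90.6 to 199 CPM in dKO-E), *mt-Nd5* (384 to 601 and 252 to 617 CPM) and *mt-Nd6* (227 to 316 and 236 to 339 CPM).

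In all, 11 of the 37 genes passed the filter on low counts in dKO-E against ctrl, and none was called at the 0.001 threshold, beside 0.246% of the 11381 genes tested called up and 2.34% called down. At an unadjusted p under 0.05, 2 were up (*mt-Nd1* and *mt-Tp*) and 3 down (*mt-Rnr1*, *mt-Rnr2* and *mt-Co1*), beside 13.1% of all genes tested up and 16.5% down at that level, and neither edgeR's likelihood ratio test nor DESeq2 called any. The median log2 fold change was 0.22 over the 7 mRNAs and -0.93 over the rRNAs, against 0.01 over all genes tested.

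This outcome rested on dKO-E A and E. Without dKO-E A, *mt-Nd1* passed as a rise (log2 fold change 0.56, SE 0.087, edgeR adjusted p = 0.000356), beside 0.223% of 11671 genes called up and 1.9% down. Without both, *mt-Rnr2* passed as a fall (-0.63, SE 0.060, edgeR adjusted p = 4.04e-06), beside 0.118% of 11867 genes called up and 1.4% down, and *mt-Nd1* was at 0.55 (SE 0.094, edgeR adjusted p = 0.00119). Leaving both out was chosen after their values had been seen, and dKO-E A was itself the library with the lowest *mt-Nd1* level. In batch 2, which holds neither library, *mt-Rnr2* passed too (-0.64, SE 0.055, edgeR adjusted p = 0.000116, n = 2 and 3), beside 0.0182% of genes called up and 0.109% down. In batch 1 without dKO-E A *mt-Rnr2* was at -0.65 (SE 0.086, edgeR adjusted p = 0.00112). Mutant and control embryos that shared a litter could be compared in litter 1 only, where *mt-Rnr2* stood at 6831 and 8857 CPM in ctrl A and B and at 601, 5230 and 5309 CPM in dKO-E A, B and C. The other 4 dKO-E embryos, among them both of batch 2, came from litter 2, which gave no ctrl library. Genotype and litter therefore cannot be told apart in the batch 2 fit. With litter as a block over both groups, *mt-Rnr2* was at -1.09 (SE 0.527, edgeR adjusted p = 0.247).

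**Figure D3:**
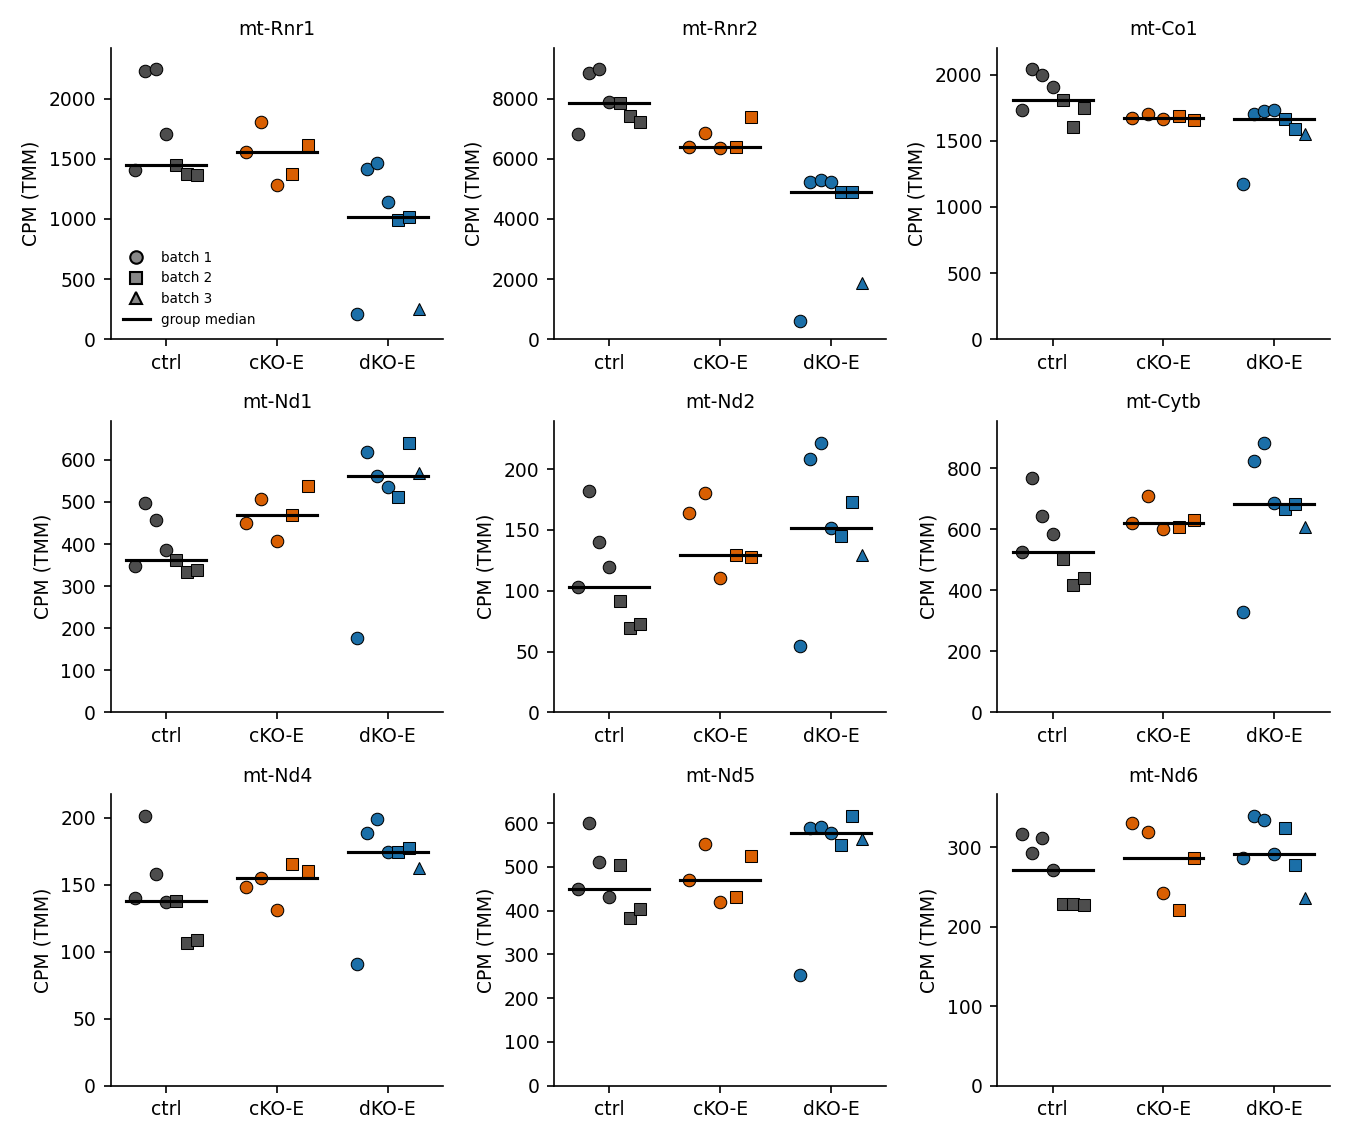
CPM of the 9 counted rRNA and mRNA genes in each library, by genotype (ctrl, n = 7, cKO-E, n = 5, dKO-E, n = 7), with a point per library shaped by batch and a line for the group median. *mt-Rnr2* is lower in all dKO-E than in all ctrl libraries, *mt-Nd1* is higher in 6 of 7, and dKO-E A is lowest of all 19 libraries in 8 of the 9 panels, with *mt-Nd6* as the exception.

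dKO-E A was the lowest of all 19 libraries in 8 of the 9 genes. The exception was *mt-Nd6*, at 287 CPM within the ctrl range. Measured beside it, the summed level of the rDNA-overlapping genes examined (2 of 4 with counts, *AY036118* at 0 in every library) was 9864 CPM in dKO-E A, the highest of all libraries, against 5662 to 7307 CPM in ctrl and 6020 CPM in dKO-E E. A high level was not particular to dKO-E A, since the dKO-E median of 7938 CPM (range 5716 to 9864 CPM) was also above every ctrl library. In cKO-E it ran from 6253 to 7619 CPM. The summed level of 5 nuclear-retained RNAs, all with counts, was 4296 to 5022 CPM in dKO-E, against 4694 to 6483 CPM in ctrl and 5451 to 6201 CPM in cKO-E, with dKO-E A lowest at 4296 CPM and dKO-E E next at 4351 CPM. The part of leftover rRNA and of nuclear RNA content in the mitochondrial differences was not tested.

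The comparison of cKO-E with ctrl asked for the effect of *Ino80* loss alone, and it used the same ctrl libraries. *mt-Rnr2* stood at 6402, 6862, 6370, 6383 and 7401 CPM in cKO-E A to E against 6831 to 8977 CPM in ctrl. In all, 3 cKO-E libraries were below every ctrl library and 2 lay within the ctrl range (log2 fold change -0.23, SE 0.065, edgeR adjusted p = 0.0218). *mt-Nd1* stood at 450, 507, 407, 469 and 538 CPM against 333 to 497 CPM, with 2 cKO-E libraries above every ctrl library (0.29, SE 0.096, edgeR adjusted p = 0.0449). *mt-Co1* stood at 1673, 1701, 1664, 1684 and 1656 CPM, all inside the ctrl range (-0.12, SE 0.056, edgeR adjusted p = 0.151). The other values were 1279 to 1805 CPM for *mt-Rnr1*, 111 to 180 CPM for *mt-Nd2*, 131 to 165 CPM for *mt-Nd4*, 420 to 551 CPM for *mt-Nd5*, 221 to 330 CPM for *mt-Nd6* and 600 to 710 CPM for *mt-Cytb*, and each of these ranges overlapped that of ctrl.

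None of the 11 genes tested was called in cKO-E against ctrl, beside 1.06% of 11660 genes called up and 2.32% called down. At an unadjusted p under 0.05, 1 was up (*mt-Nd1*) and 2 were down (*mt-Rnr2* and *mt-Co1*), beside 14.3% of all genes tested up and 15.5% down at that level, and edgeR's likelihood ratio test and DESeq2 called none. The median log2 fold change was 0.08 over the 7 mRNAs and -0.18 over the rRNAs, against 0.02 over all genes tested. *mt-Nd1* was at 0.11 within batch 1 (SE 0.107, edgeR adjusted p = 0.579) and at 0.56 within batch 2 (SE 0.092, edgeR adjusted p = 0.00407). In litter 4, *mt-Rnr2* was at 8977 CPM in ctrl C and 6862 CPM in cKO-E B. In litter 5, it was at 7882 and 7853 CPM in ctrl D and F and 6370 CPM in cKO-E C. In litter 7, cKO-E E at 7401 CPM lay between ctrl H and I at 7441 and 7241 CPM. The summed level of 9 microglial markers, all with counts, was 25.8 to 30.7 CPM in cKO-E, above 4.44 to 15.4 CPM in ctrl and 4.86 to 8.59 CPM in dKO-E. The summed level of the progenitor markers was 452 to 611 CPM in cKO-E, below 620 to 697 CPM in ctrl, and that of 6 ganglionic eminence markers, all with counts, was 64.0 to 120 CPM in cKO-E against 9.05 to 85.8 CPM in ctrl. The part of these cell types in the mitochondrial values was not tested.

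Whether the mutants differed from each other was tested directly, although no litter gave both mutants, so that genotype and litter cannot be told apart in this comparison. *mt-Rnr2* was lower in all 7 dKO-E libraries than in all 5 cKO-E libraries, with a log2 fold change of -0.75 (SE 0.322, edgeR adjusted p = 0.132), and *mt-Rnr1* was lower in 5 of 7 (-0.72, SE 0.330, edgeR adjusted p = 0.16). Most cKO-E embryos were female and most dKO-E embryos male. With sex as a covariate, *mt-Rnr2* was at -0.97 (SE 0.386, edgeR adjusted p = 0.0856). *mt-Nd4* was higher in 5 of 7 dKO-E libraries than in every cKO-E library (0.15, SE 0.127, edgeR adjusted p = 0.504). None of the 11 genes tested was called at the 0.05 threshold, beside 5.59% of 11746 genes called up and 9.42% called down, and at an unadjusted p under 0.05 the 2 rRNAs were down and none was up, beside 12.7% of all genes tested up and 14.8% down at that level. edgeR's likelihood ratio test and DESeq2 called none. Without dKO-E A and E, *mt-Rnr2* (-0.40, edgeR adjusted p = 0.000345) and *mt-Rnr1* (-0.35, edgeR adjusted p = 0.0424) passed as falls and *mt-Nd4* (0.26, edgeR adjusted p = 0.0242) and *mt-Nd5* (0.27, edgeR adjusted p = 0.0261) as rises, beside 4.94% of genes called up and 8.91% called down. Here too, the choice to leave them out followed a look at their values. Within batch 2, where 2 dKO-E libraries met 2 cKO-E libraries, *mt-Rnr2* (-0.52, edgeR adjusted p = 0.000569) and *mt-Rnr1* (-0.60, edgeR adjusted p = 0.000624) passed as falls, beside 0.231% of genes called up and 2.59% down. In the fit over all cKO-E and dKO-E libraries, markers of ganglionic eminence (4 of 4 tested, median log2 fold change -0.83) and microglia (2 of 2, -2.07) and 3 of 5 nuclear-retained RNAs (median -0.57) were called lower in dKO-E, and their part in the mitochondrial values was not tested.

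**Figure D4:**
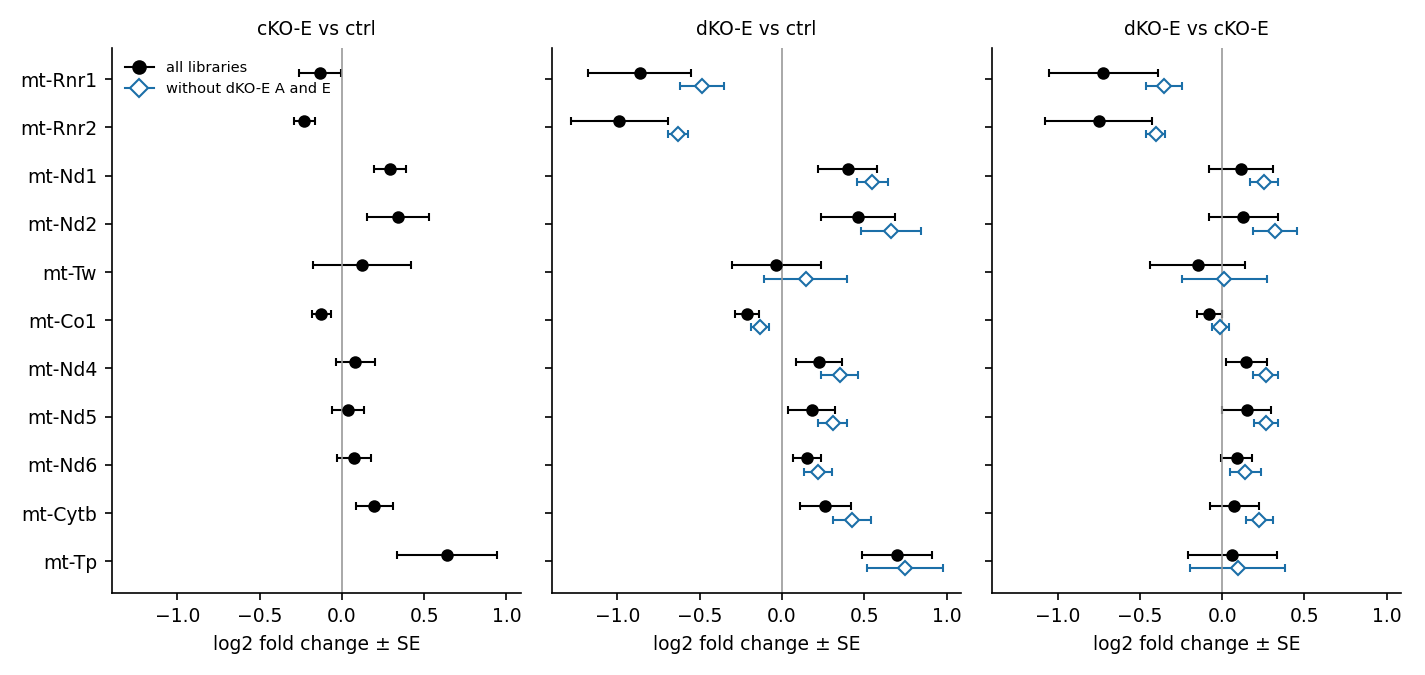
Log2 fold changes of the 11 mitochondrial genes that passed the filter, in cKO-E against ctrl, dKO-E against ctrl and dKO-E against cKO-E, from the edgeR fits, with bars for 1 SE. Filled circles use all libraries, and open diamonds, drawn only in the comparisons that hold dKO-E, leave out dKO-E A and E. Both rRNAs lie below 0 in each comparison, and in those that hold dKO-E their SE is smaller when A and E are left out.

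The make-up of the mitochondrial mRNA counts also differed between groups. *mt-Co1* took 44.5% to 52.4% of them in ctrl, 43.4%, 41.2%, 46.6%, 45.4% and 42.2% in cKO-E A to E, and 38.1% to 41.8% in dKO-E other than A, at 49.6%. All 6 of these dKO-E libraries were below every ctrl library. *mt-Nd1* took 9.64% to 10.8% in ctrl and 11.7%, 12.3%, 11.4%, 12.7% and 13.7% in cKO-E, so that all 5 cKO-E libraries were above every ctrl library. In dKO-E it took 12.4% to 15.4% in 6 libraries, all above ctrl, and 7.46% in dKO-E A. These shares sum to 100% within a library, so that a higher share of 1 gene lowers the others, and they were not tested.

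**Figure D5:**
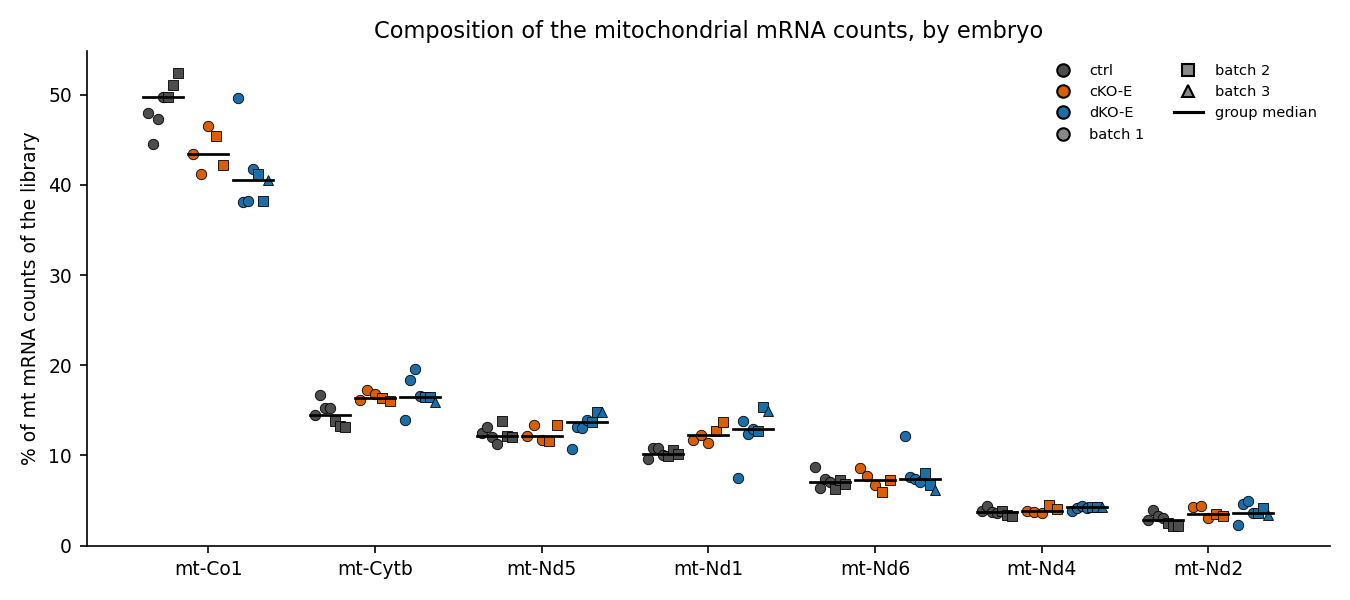
Percentage of the mitochondrial mRNA counts of each library that fell on each of the 7 counted mRNA genes, by genotype (colour) and sequencing batch (shape), with a point per library and a line for the group median. *mt-Co1* takes the largest part in every library, it is smaller in 6 of 7 dKO-E libraries than in every ctrl library, and *mt-Nd1* is larger in all cKO-E and in 6 dKO-E libraries.

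The tRNAs were hardly captured, since 13 of the 22 genes had any count and none had more than 53 counts in a library. Only *mt-Tp* and *mt-Tw*, the tRNA for tryptophan, passed the filter in the comparisons of genotypes. *mt-Tp* ran from 2.57 to 6.33 CPM in ctrl (median 3.78), stood at 9.65, 7.74, 3.68, 1.18 and 5.76 CPM in cKO-E A to E, and ran from 4.11 to 7.98 CPM in dKO-E (median 7.29). The level was above every ctrl library in 5 of 7 dKO-E libraries, with a log2 fold change of 0.70 (SE 0.213, edgeR adjusted p = 0.031) that did not pass at 0.001. *mt-Tw* ran from 1.36 to 5.76 CPM in ctrl, from 1.18 to 5.33 CPM in cKO-E and from 1.39 to 4.70 CPM in dKO-E, and the groups overlapped. *mt-Tq*, for glutamine, and *mt-Tm*, for methionine, ran from 0.462 to 4.33 CPM and from 0 to 4.72 CPM over all 19 libraries. *mt-Tp* and *mt-Tq* lie on the minus strand, as *mt-Nd6* does. With the strand setting not given, their values may also hold transcripts of the opposite strand.

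Sequencing batch was compared in 1 fit over all libraries with genotype as a second term. Of 13 mitochondrial genes tested, which here included *mt-Tq* and *mt-Tm*, none was called in batch 2 against batch 1 at the 0.05 threshold, beside 0% of 13654 genes called in either direction. At an unadjusted p under 0.05, 1 was down, *mt-Nd6* (log2 fold change -0.20, SE 0.069, edgeR adjusted p = 0.181), beside 7.49% of all genes tested down at that level, and edgeR's likelihood ratio test and DESeq2 called none. The next smallest p-values belonged to *mt-Nd2* (-0.37, SE 0.191, edgeR adjusted p = 0.37) and *mt-Cytb* (-0.17, SE 0.128, edgeR adjusted p = 0.565). Among ctrl libraries alone, these same 3 genes passed as lower in batch 2, *mt-Nd2* by a log2 fold change of -0.77, *mt-Nd6* by -0.33 and *mt-Cytb* by -0.42 (edgeR adjusted p = 0.0159, 0.0133 and 0.0267), beside 2.96% of genes called up and 4.41% down. *mt-Nd6* stood at 316, 293, 311 and 271 CPM in ctrl A, B, C and D of batch 1 and at 228, 228 and 227 CPM in ctrl F, H and I of batch 2, without overlap. Of the ctrl libraries, only D and F, from litter 5, came from a litter sequenced in both batches. ctrl H and I came from litter 7, which gave no library of batch 1, so that batch and litter are largely confounded among ctrl. A test of whether the effect of either mutation differed between batches 1 and 2 called none of the 11 genes and none of all 11994 genes at the 0.05 threshold (lowest edgeR adjusted p = 0.427 over the mitochondrial genes).

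The machinery that copies mitochondrial DNA and that transcribes, matures and degrades mitochondrial RNA is encoded in the nucleus. A list of 53 genes held members of it and 7 nuclear regulators of mitochondrial biogenesis, and 52 of the 53 were in the files. In dKO-E against ctrl, 47 were tested, none was called up and 2 were called down, beside 0.246% of all genes called up and 2.34% called down. Both modify mitochondrial tRNAs. *Nsun3*, which methylates the anticodon of the mitochondrial methionine tRNA, ran from 16.7 to 30.8 CPM in ctrl and from 12.2 to 19.0 CPM in dKO-E (log2 fold change -0.76, SE 0.121, edgeR adjusted p = 0.000286). *Mto1*, which modifies the wobble base of several mitochondrial tRNAs, ran from 27.5 to 33.2 CPM in ctrl and from 19.4 to 23.2 CPM in dKO-E, without overlap (-0.49, SE 0.079, edgeR adjusted p = 0.000312). Without dKO-E A and E, *Nsun3* remained called and *Mto1* missed the threshold with a log2 fold change of -0.46 (edgeR adjusted p = 0.00162). Within single batches neither passed, with *Nsun3* at -0.75 in batch 1 (edgeR adjusted p = 0.00222) and -0.76 in batch 2 (0.161) and *Mto1* at -0.49 (0.0104) and -0.44 (0.261). The next smallest p-values belonged to *Polg2*, the accessory subunit of the mitochondrial DNA polymerase (0.63, SE 0.151, edgeR adjusted p = 0.00844), *Lrpprc*, which stabilizes mitochondrial mRNAs (0.21, SE 0.064, edgeR adjusted p = 0.0312), and *Ppargc1b*, a coactivator of mitochondrial biogenesis (-0.67, SE 0.225, edgeR adjusted p = 0.0481).

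In cKO-E against ctrl, none of the 48 genes tested was called, with 4 up and 7 down at an unadjusted p under 0.05, beside 14.3% and 15.5% of all genes tested. The smallest p-value was that of *Ppargc1b* (log2 fold change -0.99, SE 0.236, edgeR adjusted p = 0.00773), and *Mto1* was at -0.44 (SE 0.106, edgeR adjusted p = 0.00834). The next were *Pnpt1*, an RNA-degrading phosphorylase (-0.34), and *Gabpa* (-0.25) and *Nrf1* (-0.19), nuclear transcription factors of respiratory genes, with edgeR adjusted p-values of 0.0202, 0.0377 and 0.0408. In dKO-E against cKO-E, 3 of 47 were called up and none down at the 0.05 threshold, a count close to the 5.59% of all genes called up there (9.42% were called down). They were *Nrf1* (0.21, SE 0.057, edgeR adjusted p = 0.015) and *Yy1* (0.19, SE 0.060, edgeR adjusted p = 0.0381), a zinc finger factor with targets among respiratory genes, and *Polg*, the mitochondrial DNA polymerase (0.29, SE 0.093, edgeR adjusted p = 0.0381), which missed it without dKO-E A and E at a log2 fold change that was again 0.29 (edgeR adjusted p = 0.0633). Within batch 1 alone only *Nrf1* passed (edgeR adjusted p = 0.0359), and within batch 2 alone none of the 3 did, with *Polg* at 0.50, *Yy1* at 0.23 and *Nrf1* at 0.10. *Nsun3* (-0.36, edgeR adjusted p = 0.0678) and *Ssbp1*, a binder of single-stranded mitochondrial DNA (0.22, edgeR adjusted p = 0.107), came next. *Polrmt*, *Tfam* and the other listed transcription factors of the mitochondrion were called in none of the genotype comparisons. The median log2 fold change of the list was -0.03 in cKO-E against ctrl, 0.06 in dKO-E against ctrl and 0.09 in dKO-E against cKO-E, against 0.02, 0.01 and 0.02 over all genes tested.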

How the data were processed

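Cerebral cortex RNA of 19 E13.5 embryos had been sequenced, and the deposited values were whole-number counts per gene that the authors made with bcl2fastq 2.17, cutadapt 1.13, STAR 2.5.2a on GRCm38 (mm10), UMI-tools 0.5.3 and HTSeq 0.6.1p1 (versions from the submitters' processing notes). The GENCODE release and strand setting were not given in the sources used here. Members were found by Ensembl identifier in GENCODE M21 (GRCm38), which also supplied coordinates and transcript sequences; 51633 of 51912 identifiers were found there. Rows that named no gene were left out.

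Here, groups came from the labels. Counts of all genes were fitted with edgeR 4.0.16 (R 4.3.3): filterByExpr with a minimum count of 10, TMM factors, quasi-likelihood tests and Benjamini-Hochberg adjustment over all genes tested. Calls needed an adjusted p under 0.001 against ctrl, as in the study (whose test was the likelihood ratio test of edgeR 3.20.9), and under 0.05 elsewhere. SE was the log2 fold change divided by the root of F. CPM used TMM factors over all 19 libraries; per-kilobase levels used unscaled CPM. Nuclear matches were exact 60-base windows in annotated transcripts of nuclear genes. All rRNA and mRNA members were named with values, with fold changes for called members and the 3 smallest p-values of each fit; of the nuclear list, called genes and the smallest p-values.

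Members and lists were chosen with earlier results of these data known. Embryos were the replicates, some of them littermates, and p-values measure the spread between them. No pair of libraries agreed within sampling noise (smallest chi-square per degree of freedom 1.42). Floors of 3 counts cover counting error only. The test was checked on simulated counts with 200 changed genes. Alternatives tried were DESeq2 1.42.0, the likelihood ratio test, other scalings, filters and thresholds, covariates for batch, sex and litter, the replicate letter as a block, single batches and leaving out libraries.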

Additional observations from a re-analysis of the deposited data

Results flagged for a closer look

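Among 69 combinations of a value and a genotype, 12 had 1 library that stood apart from the rest of its group by Dixon's criterion, and chance gives about 1 in 20, or 3.45. Of the 12, 10 belonged to dKO-E A. Its *mt-Nd1* level of 176 CPM lay below 512 to 641 CPM in the other 6 dKO-E libraries. Its *mt-Co1* level of 1171 CPM lay below 1548 to 1731 CPM. Its *mt-Nd4* level was 90.6 CPM, against 162 to 199 CPM in the others, and its *mt-Nd5* level was 252 CPM, against 551 to 617 CPM. The share of counts on mitochondrial mRNAs was 0.246% in dKO-E A and 0.410% to 0.459% in the others.

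Within the mitochondrial mRNA counts of dKO-E A, *mt-Nd1* took 7.46% (12.4% to 15.4% in the others), *mt-Nd4* 3.84% (4.20% to 4.40%) and *mt-Nd5* 10.7% (13.1% to 14.8%). *mt-Co1* took 49.6% (38.1% to 41.8%) and *mt-Nd6* 12.1% (6.18% to 8.04%). The shares of 1 library sum to 100% and are not independent of each other.

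The other 2 were cKO-E libraries. *mt-Cytb* was at 710 CPM in cKO-E B and at 600 to 630 CPM in the other 4, and the mRNA share was 0.344% in cKO-E C and 0.383% to 0.398% in the other 4. The low rRNA values of dKO-E A and E did not meet the criterion, since each is near the other.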

How the results depend on the processing

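At an adjusted p under 0.05 instead of 0.001, cKO-E against ctrl had 1 mitochondrial gene up (*mt-Nd1*) and 1 down (*mt-Rnr2*), and dKO-E against ctrl had 1 up (*mt-Tp*) and 1 down (*mt-Rnr2*), beside 852 genes up and 1152 down of 11660 and 620 up and 1139 down of 11381. In dKO-E against ctrl, batch 2 alone gave 1 down, as did leaving out dKO-E A and E (*mt-Rnr2* each time), and leaving out single embryos gave 0 to 1 up and 0 down. Over all genes, batch 2 alone gave 2 up and 12 down of 11004. Leaving out dKO-E A and E gave 14 up and 166 down of 11867, and leaving out dKO-E A gave 26 up and 222 down of 11671. In dKO-E against cKO-E, 2 were down when all genes with at least 1 count were kept, 2 were down in batch 2 alone, 2 were up and 2 down without dKO-E A and E, and 1 was up (*mt-Nd4*) and 1 down (*mt-Rnr2*) in batch 1 without dKO-E A. In the same order, all genes gave 759 up and 1364 down of 26378, and 25 up and 280 down of 10821. The last 2 settings gave 575 up and 1037 down of 11638, and 343 up and 716 down of 12187. Leaving out single embryos gave 0 to 3 up and 0 to 1 down there. The highest values came from leaving out dKO-E A, beside 621 genes up and 1105 down of 11729. In batch 2 against batch 1, 4 were down with all genes of at least 1 count and 3 in ctrl libraries alone. Over all genes, these settings gave 317 up and 584 down of 27757, and 347 up and 517 down of 11736.

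Replicate letters did not pair the libraries: correlations of deviations ran from -0.363 to 0.145 and exceeded 0.1 in 1 pair of each group pair. With the letter as a replicate block, dKO-E against cKO-E had 1 down (*mt-Rnr2*, -1.22, edgeR adjusted p = 0.0494), beside 484 genes up and 932 down of 11746. With that block, no other count of calls changed, and *mt-Cytb* turned in the batch comparison (0.0089). It also turned in dKO-E libraries alone (0.012). The causes were not tested. With the rRNAs taken out of both the sum and the total, the log2 difference in the mitochondrial share was 0.068 in cKO-E against ctrl, 0.128 in dKO-E against ctrl and 0.060 in dKO-E against cKO-E, in place of -0.10, -0.60 and -0.50. With the rRNAs kept, the last 2 were -0.38 and -0.27 without dKO-E A and -0.25 and -0.14 without dKO-E A and E. Scaling by total counts moved the median of all genes to 0.10 in dKO-E against ctrl, with 8 of 11 members above 0 in place of 7. With litter as a block, *mt-Tp* was at 0.79 in dKO-E against ctrl (edgeR adjusted p = 0.186). In cKO-E against ctrl, *mt-Rnr2* was then at -0.23 and *mt-Nd1* at 0.32 (edgeR adjusted p = 0.0911 and 0.088). Few counts limited every statement on tRNAs, with at most 53 per gene and library.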
